A study of Arabidopsis thaliana with 18 samples.

Results

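The genotype by maturation interaction asks of each Arabidopsis thaliana gene whether its transcript level changed differently between siliques and dry seeds in the mutant rdo5-1 than in the control line NIL-DOG1. It is the difference of differences, (rdo5-1 dry seeds minus rdo5-1 siliques) minus (NIL-DOG1 dry seeds minus NIL-DOG1 siliques), on a log2 scale. The rule took 12 of the 18 arrays of the series, 3 for each of the 4 groups, and all 30014 genes of the deposited table. A positive value means that the change towards the dry seed was more upward in rdo5-1, and a negative value that it was more downward. The interaction was fitted with limma, and a gene was called where its p, adjusted over the 30014 genes, was under 0.05.

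The siliques, which are the fruits with the seeds inside, were taken at 14 days after pollination, and the dry seeds were freshly harvested. Both lines also have seeds imbibed for 6 h. Their levels are not part of the interaction value, but in the fit to all 18 arrays they add to the estimate of the spread, and so to its errors and calls. The labels give NIL-DOG1 as wild type, and they do not state the genetic background of rdo5-1. The labels give no treatment, the replicates are called biological, and all plants grew on soil under long days (16 h light, 8 h dark). The mutant is represented by 1 line, so the rdo5-1 allele and any other difference between the lines cannot be told apart. A silique also holds valves and other fruit tissue, so the change from siliques to dry seeds joins seed maturation with the loss of fruit tissue, and the arrays do not separate them.

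During maturation an Arabidopsis seed fills with storage proteins and oil, switches on late embryogenesis abundant proteins and small heat shock proteins, loses its chlorophyll and dries. Primary dormancy is laid down in the same period, through abscisic acid and through DOG1 (DELAY OF GERMINATION 1), and is lost again in storage or with imbibition in the cold. RDO5 (REDUCED DORMANCY 5) codes for a relative of the type 2C protein phosphatases, and its mutants have less dormant seeds. An interaction therefore sets genotype differences that are equal in the fruit and the dry seed apart from those that are not. Unequal ones may appear, disappear or change in size by the time the seed is dry, which the genotype difference at each stage tells.

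Replicate arrays were close to each other: the mean correlation of an array with its 2 partners was 0.991 to 0.994, and array medians lay between 4.03 and 4.35. The valve markers went with the labelled tissues. The 15 markers of silique valve, dehiscence and secondary wall averaged 5.53 to 5.67 per array in NIL-DOG1 siliques and 5.58 to 5.62 in rdo5-1 siliques, but 3.56 to 3.64 and 3.61 to 3.65 in dry seeds. The 16 genes of seed storage and oil body proteins were high in every array, between 13.64 and 14.03, so their high level does not tell the labels apart. Maturation itself was large, with 54% of genes called for dry seeds against siliques in NIL-DOG1 and 52.9% in rdo5-1.

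The interaction was small beside that. It was called for 15 genes (0.05% of those tested), 8 higher (0.0267%) and 7 lower (0.0233%). The median absolute interaction was 0.12, against a median absolute maturation change of 0.345 in NIL-DOG1 and 0.33 in rdo5-1. The interaction reached 1 log2 unit in size in 145 genes, whereas the maturation change did so in 6665 genes in NIL-DOG1 and in 6602 in rdo5-1. The median standard error (SE) of the interaction was 0.153, and the smallest called value was 0.807 in size, so smaller differences were mostly not detectable with 3 arrays per group. At an unadjusted p under 0.05 there were 2202 genes (7.34%), 1111 higher (3.7%) and 1091 lower (3.63%).

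**Figure D1:**
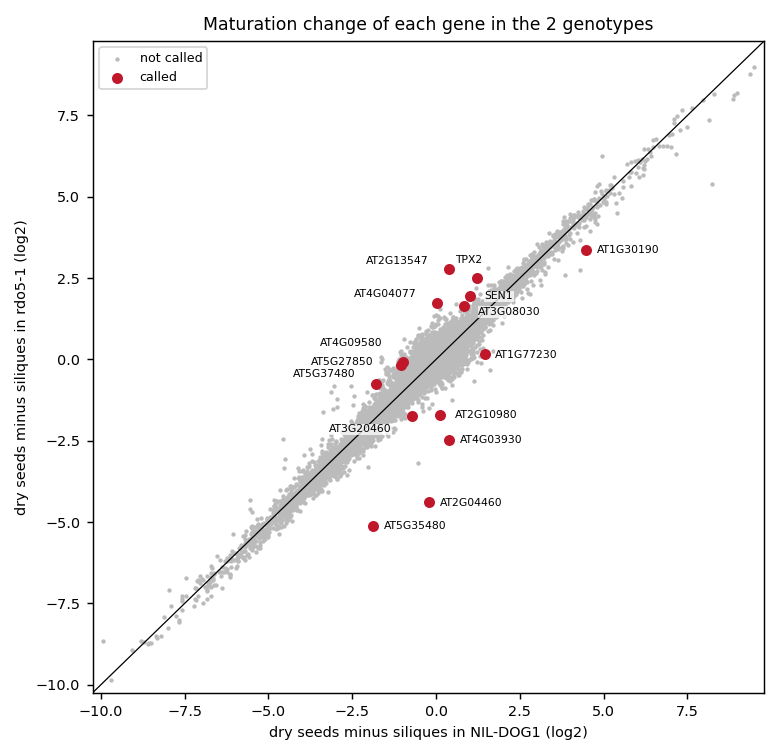
Dry seeds minus siliques (log2) in NIL-DOG1 on the x axis and in rdo5-1 on the y axis, 1 point for each of the 30014 genes, with the 15 called genes in red and named. The line marks equal change in both genotypes. Most genes lie along it, AT2G13547 and AT4G04077 stand above it, and AT2G04460 and AT5G35480 stand farthest below it.

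The 15 called genes fell into patterns by where the genotypes stood apart. For 7 genes the difference between the genotypes was called in dry seeds and not in siliques, 6 of them higher in the interaction and 1 lower. For 6 it was called in siliques and not in dry seeds, 5 of them lower and 1 higher. AT4G04077 was called at both stages and AT1G77230 at neither. Over all genes 0.2% were called between the genotypes in siliques and 0.137% in dry seeds. These contrasts use the same arrays as the interaction, so the patterns describe the called genes and are no further evidence for them. In all 15 the 9 dry minus silique differences of one genotype did not overlap the 9 of the other, as in 2.82% of all genes.

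Of the called genes the one with the largest interaction was AT2G04460, annotated as a pseudogene on chromosome 2. Its NIL-DOG1 arrays read 3.83, 3.87 and 3.37 in siliques and 3.77, 3.23 and 3.49 in dry seeds. The rdo5-1 arrays read 7.74, 9.05 and 8.36 in siliques and 3.98, 4.1 and 3.93 in dry seeds. Only the rdo5-1 siliques were high, and the other 3 groups lay close together. The interaction was -4.19 ± 0.35 (SE; 95% interval -4.93 to -3.44; adjusted p = 9.89e-05), an 18.2-fold difference between the changes. The gene fell by 4.38 in rdo5-1, and its change of -0.20 in NIL-DOG1 was not called (adjusted p = 0.546).

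AT5G35480, a protein-coding gene of chromosome 5 with no symbol in the annotation, had a like pattern from a higher base. In NIL-DOG1 it read 5.44, 4.89 and 4.57 in siliques and 2.61, 3.46 and 3.19 in dry seeds. The rdo5-1 arrays read 8.60, 8.93 and 8.72 and then 3.77, 3.94 and 3.20. It fell in both genotypes, by 1.88 in NIL-DOG1 and by 5.11 in rdo5-1, and the dry seed arrays of the genotypes overlapped. The NIL-DOG1 dry seed mean was at percentile 15.9 of all genes, close to background, where differences are compressed. The interaction was -3.24 ± 0.37 (SE; 95% interval -4.02 to -2.46; adjusted p = 0.00151).

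AT4G03930, a protein-coding gene of chromosome 4, was at the dim end of the scale in all groups but the rdo5-1 siliques. Its arrays read 3.17, 3.15 and 3.30 in NIL-DOG1 siliques and 3.35, 3.59 and 3.85 in NIL-DOG1 dry seeds. Those of rdo5-1 read 5.58, 6.28 and 6.24 in siliques and 3.40, 3.44 and 3.88 in dry seeds. The rdo5-1 siliques stood above every other array, and the dry seeds of the genotypes overlapped. The interaction was -2.85 ± 0.26 (SE; adjusted p = 0.000207), made of a fall of 2.46 in rdo5-1 and a change of 0.39 in NIL-DOG1 that was not called (adjusted p = 0.0907).

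The pseudogene AT2G10980 on chromosome 2 and the protein-coding gene AT3G20460 on chromosome 3 completed the group lower in the interaction with a genotype difference called in siliques. AT2G10980 read 2.65, 2.54 and 2.89, then 2.65, 2.64 and 3.17 in NIL-DOG1, and 4.12, 4.80 and 4.89, then 3.0, 2.96 and 2.76 in rdo5-1, siliques first. Its NIL-DOG1 means were at percentiles 2.27 and 3.52 of all genes, where a log2 value is mostly background and differences are compressed, and its interaction was -1.82 ± 0.26 (SE; adjusted p = 0.0115). AT3G20460 read 4.40, 4.49 and 4.54, then 3.67, 3.57 and 4.0 in NIL-DOG1, and 5.38, 5.14 and 5.27, then 3.37, 3.68 and 3.51 in rdo5-1. For both genes the siliques of the genotypes were apart with rdo5-1 above, and the dry seeds overlapped. AT3G20460 fell by 0.73 in NIL-DOG1 and by 1.74 in rdo5-1, an interaction of -1.02 ± 0.15 (SE; adjusted p = 0.0118). With the 12 arrays fitted alone neither gene was called (adjusted p = 0.0867 for AT2G10980 and 0.115 for AT3G20460).

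TPX2 (AT1G65970), which encodes thioredoxin-dependent peroxidase 2, an enzyme that reduces peroxides, was apart in siliques in the other direction. It read 7.62, 7.40 and 7.76 in NIL-DOG1 siliques and 6.40, 6.95 and 6.46 in rdo5-1 siliques. In dry seeds it read 8.81, 8.89 and 8.76 in NIL-DOG1 and 9.08, 9.24 and 9.03 in rdo5-1. Among the 4 groups of the interaction the rdo5-1 siliques were the lowest arrays and the rdo5-1 dry seeds the highest, with no overlap at either stage. The genotype difference was -0.99 in siliques (adjusted p = 0.00522) and 0.30 in dry seeds, the latter not called (adjusted p = 0.609). TPX2 rose in both genotypes, by 1.23 and 2.51, and the interaction was 1.29 ± 0.20 (SE; 95% interval 0.86 to 1.72; adjusted p = 0.0242). The call did not hold without 10 of the 18 arrays taken singly, with the highest adjusted p, 0.0933, without rdo5-1 dry replicate 2 (interaction 1.22). Nor did it hold with the 12 arrays fitted alone (adjusted p = 0.0840).

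**Figure D2:**
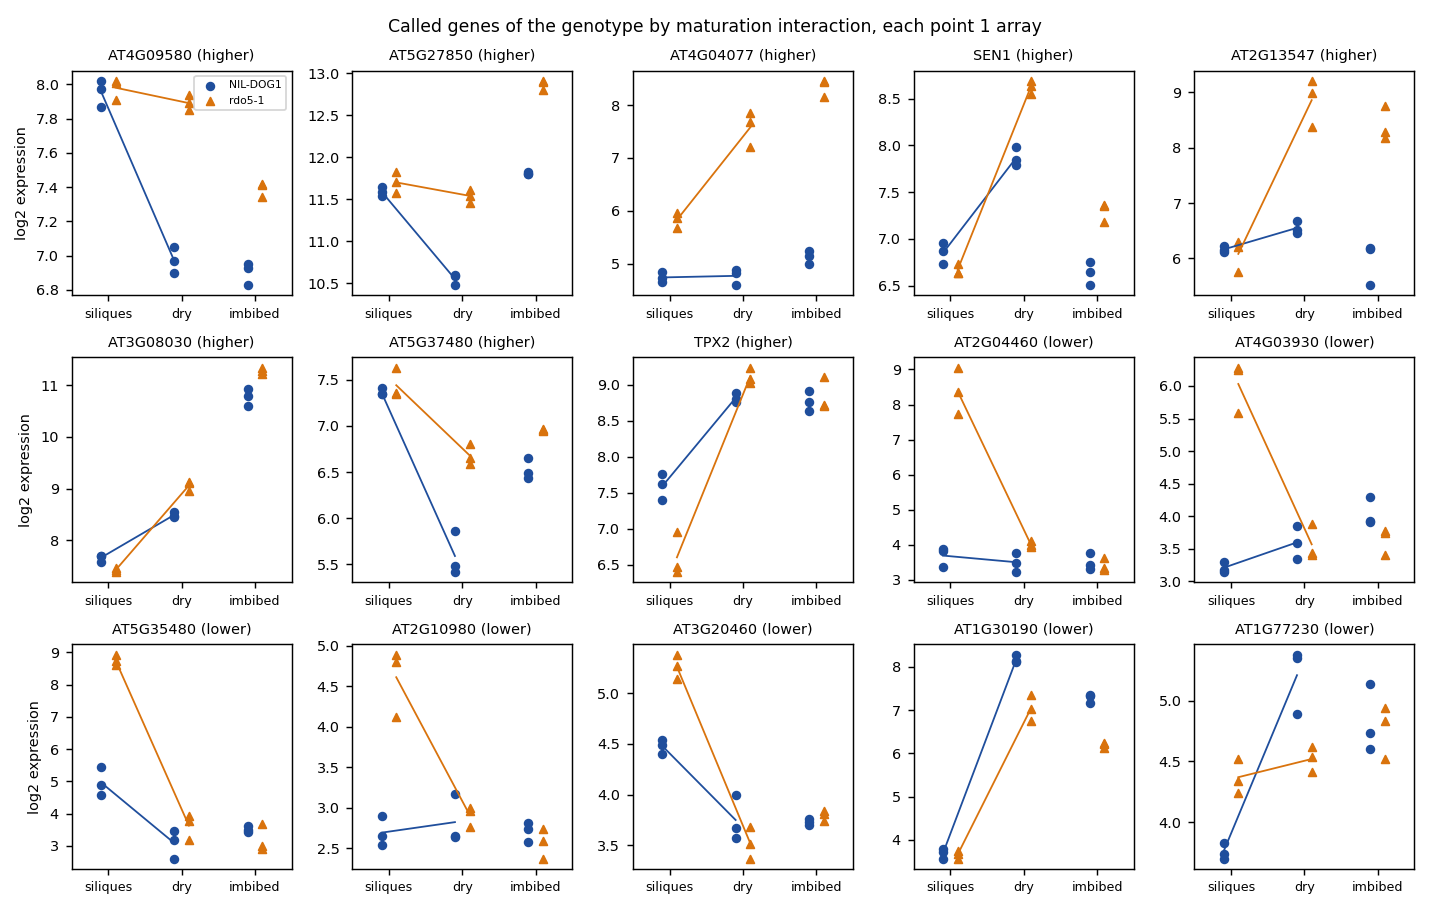
Log2 expression of the 15 called genes on every array, by stage, with NIL-DOG1 as blue circles and rdo5-1 as orange triangles; lines join the group means of siliques and dry seeds, and the imbibed arrays, which enter the test through the spread alone, stand at the right. In AT2G04460, AT4G03930, AT5G35480, AT2G10980 and AT3G20460 the rdo5-1 siliques stand above the NIL-DOG1 siliques. The dry seeds of these genes overlap, but for AT2G04460, whose rdo5-1 dry seeds stand slightly above those of NIL-DOG1. In AT2G13547 and AT4G09580 the siliques overlap and the dry seeds are apart.

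Among genes whose genotype difference was called in dry seeds, AT2G13547 had the largest interaction. It is a protein-coding gene of chromosome 2 with no symbol in the annotation. In NIL-DOG1 it read 6.11, 6.15 and 6.22 in siliques and 6.67, 6.46 and 6.52 in dry seeds. Its rdo5-1 values were 6.30, 6.20 and 5.75 in siliques and 9.21, 8.38 and 8.99 in dry seeds. The siliques overlapped and every rdo5-1 dry seed array stood above every NIL-DOG1 array. The gene rose by 2.78 in rdo5-1, its change of 0.39 in NIL-DOG1 was not called (adjusted p = 0.151), and the interaction was 2.39 ± 0.31 (SE; 95% interval 1.73 to 3.04; adjusted p = 0.00392), a 5.23-fold difference.

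AT4G09580 on chromosome 4 and AT5G27850 on chromosome 5, both protein coding, fell with maturation in NIL-DOG1 and were not called as changed in rdo5-1. AT4G09580 read 8.02, 7.87 and 7.97, then 6.97, 6.90 and 7.05 in NIL-DOG1, and 8.02, 8.01 and 7.91, then 7.85, 7.89 and 7.94 in rdo5-1, siliques first. Among the 4 groups of the interaction only its NIL-DOG1 dry seeds were low, while imbibed NIL-DOG1 seeds averaged 6.90. The change was -0.98 in NIL-DOG1 (adjusted p = 1.12e-09) and -0.09 in rdo5-1 (adjusted p = 0.270), and the interaction was 0.89 ± 0.09 (SE; adjusted p = 0.000640). AT5G27850 read 11.58, 11.65 and 11.54, then 10.60, 10.48 and 10.58 in NIL-DOG1, and 11.57, 11.70 and 11.82, then 11.61, 11.54 and 11.46 in rdo5-1. Here too the NIL-DOG1 dry seeds alone were low. The fall of 1.04 in NIL-DOG1 stood against a change of -0.16 in rdo5-1 (adjusted p = 0.0777), an interaction of 0.88 ± 0.10 (SE; adjusted p = 0.00151).

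AT5G37480, a protein-coding gene of chromosome 5, fell in both genotypes but less far in rdo5-1. It read 7.41, 7.34 and 7.35, then 5.86, 5.42 and 5.48 in NIL-DOG1, and 7.34, 7.63 and 7.36, then 6.59, 6.65 and 6.80 in rdo5-1. The siliques overlapped, and the rdo5-1 dry seeds stood above those of NIL-DOG1. It fell by 1.78 in NIL-DOG1 and by 0.76 in rdo5-1, and the interaction was 1.02 ± 0.15 (SE; adjusted p = 0.0169). The call did not hold without 7 of the 18 arrays taken singly, with the highest adjusted p, 0.0616, without NIL-DOG1 dry replicate 2 (interaction 0.93). Nor did it hold with the 12 arrays fitted alone (adjusted p = 0.115).

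SEN1 (AT4G35770), a gene known from darkened and senescing leaves and also named DARK INDUCIBLE 1, rose further in rdo5-1. It read 6.96, 6.87 and 6.73 in siliques and 7.98, 7.79 and 7.84 in dry seeds of NIL-DOG1. The mutant arrays read 6.64, 6.64 and 6.73 and then 8.69, 8.64 and 8.55. Silique arrays of the genotypes met at 6.73, and the dry seeds were apart. SEN1 rose by 1.01 in NIL-DOG1 and by 1.96 in rdo5-1, an interaction of 0.94 ± 0.12 (SE; 95% interval 0.69 to 1.20; adjusted p = 0.00392).

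AT3G08030, a protein-coding gene of chromosome 3, also rose in both genotypes. It read 7.70, 7.70 and 7.57, then 8.47, 8.54 and 8.45 in NIL-DOG1, and 7.39, 7.46 and 7.42, then 9.12, 8.96 and 9.10 in rdo5-1. The rdo5-1 arrays were below those of NIL-DOG1 in siliques and above them in dry seeds. The rises were 0.83 and 1.64 and the interaction 0.81 ± 0.12 (SE; adjusted p = 0.0115). The genotype difference in dry seeds, 0.57 (adjusted p = 0.00692), missed the threshold without rdo5-1 dry replicate 1 (0.54; adjusted p = 0.0560).

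AT1G30190, a protein-coding gene of chromosome 1, was the gene with a genotype difference called in dry seeds that was lower in the interaction. It read 3.79, 3.71 and 3.57 in siliques and 8.13, 8.28 and 8.11 in dry seeds of NIL-DOG1. In the mutant it read 3.57, 3.68 and 3.74 and then 7.02, 6.74 and 7.35. The siliques overlapped near the dim end of the scale, and the rdo5-1 dry seeds stood below those of NIL-DOG1. The rise was 4.48 in NIL-DOG1 and 3.37 in rdo5-1, an interaction of -1.11 ± 0.17 (SE; adjusted p = 0.0169). The call did not hold without 5 of the 18 arrays taken singly, with the highest adjusted p, 0.0670, without NIL-DOG1 dry replicate 2 (interaction -1.06). Nor did it hold with the 12 arrays fitted alone (adjusted p = 0.115).

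AT4G04077, annotated as a long non-coding RNA on chromosome 4, was higher in rdo5-1 at both stages and more so in dry seeds. In NIL-DOG1 it stayed between 4.60 and 4.89 over both stages, reading 4.65, 4.73 and 4.85 in siliques and 4.60, 4.89 and 4.82 in dry seeds. The rdo5-1 arrays read 5.86, 5.95 and 5.68 in siliques and 7.85, 7.69 and 7.20 in dry seeds. The genotypes did not overlap at either stage. The genotype difference was 1.09 in siliques and 2.81 in dry seeds, and the interaction was 1.72 ± 0.20 (SE; 95% interval 1.29 to 2.16; adjusted p = 0.00188).

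AT1G77230, a protein-coding gene of chromosome 1, crossed over. It read 3.74, 3.83 and 3.70 in siliques and 5.35, 5.38 and 4.89 in dry seeds of NIL-DOG1. Its rdo5-1 values were 4.52, 4.34 and 4.24 and then 4.62, 4.41 and 4.54. The rdo5-1 siliques were above and the rdo5-1 dry seeds below their NIL-DOG1 counterparts, without overlap, though neither difference was called (0.61 with adjusted p = 0.193, and -0.68 with adjusted p = 0.115). It rose by 1.45 in NIL-DOG1, its change of 0.16 in rdo5-1 was not called (adjusted p = 0.418), and the interaction was -1.29 ± 0.21 (SE; adjusted p = 0.0421). The call was the least stable of the 15. It did not hold without 13 of the 18 arrays taken singly, with the highest adjusted p, 0.13, without NIL-DOG1 dry replicate 2 (interaction -1.20).

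The imbibed seeds, whose levels are not part of the interaction value but whose spread enters its test, give a further reading of the same genes. The genotype difference there was called for 7 of the 15, against 0.633% of all genes. These were AT4G04077 and 6 of the 7 genes called between the genotypes in dry seeds and not in siliques. None of the 6 genes called in siliques and not in dry seeds was among them. Whether these shares differ was not tested. AT2G13547 read 6.17, 5.52 and 6.19 in imbibed NIL-DOG1 and 8.75, 8.18 and 8.28 in imbibed rdo5-1, a difference of 2.44 (adjusted p = 3.38e-05) beside 2.31 in dry seeds. AT5G27850 differed by 1.06 in imbibed seeds beside 0.99 in dry seeds, and AT1G30190 by -1.09 beside -1.13. For AT4G09580 the difference was 0.49 (adjusted p = 0.00168) beside 0.92, and AT5G37480, at 0.43, missed the threshold (adjusted p = 0.106). AT2G04460 read 3.31, 3.77 and 3.43 in imbibed NIL-DOG1 and 3.63, 3.34 and 3.27 in imbibed rdo5-1, which overlap.

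**Figure D3:**
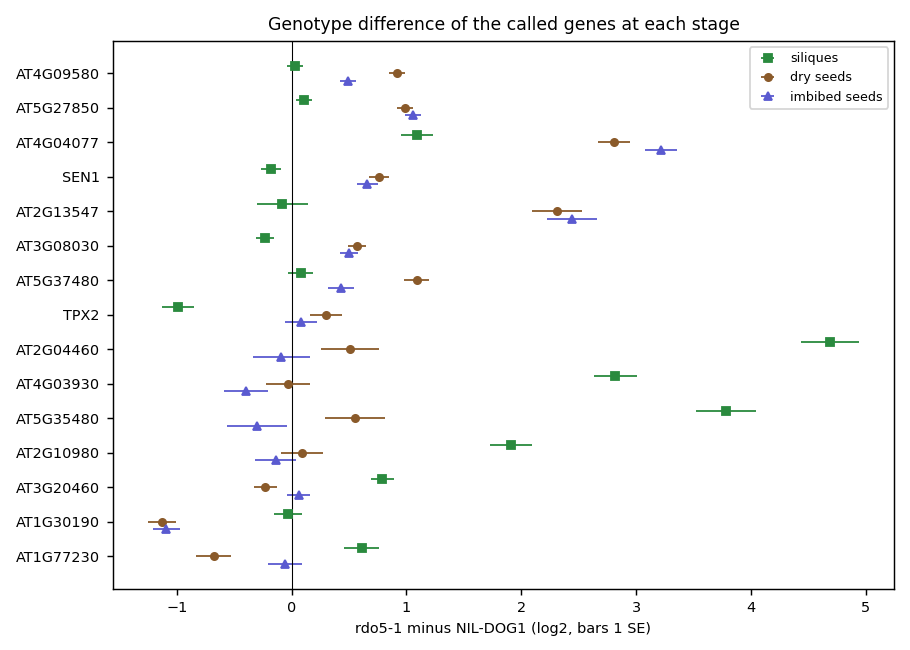
Genotype difference, rdo5-1 minus NIL-DOG1 (log2), of the 15 called genes in siliques (green squares), dry seeds (brown circles) and imbibed seeds (blue triangles), with bars of 1 SE from the fit. For AT2G13547, AT5G27850 and AT1G30190 dry and imbibed seeds lie together and siliques near 0, and for AT2G04460 and AT5G35480 only siliques lie far from 0.

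The called genes were also compared by annotation and position. By annotation 12 of the 15 were protein coding, 2 were pseudogenes and 1 was a long non-coding RNA, where these kinds made up 85.2%, 8.88% and 0.593% of all 30014 genes, 550 unmatched codes included. They lay on all 5 chromosomes, with 3, 3, 2, 4 and 3 genes on chromosomes 1 to 5. AT4G03930 and AT4G04077 were 14 genes apart in the order of locus codes and had interactions of opposite sign. Both lay with AT4G09580 inside a stretch of 734 of the 4620 genes of chromosome 4, and SEN1 lay 2941 genes from AT4G09580. The 3 genes of chromosome 2 lay within 787 of 4904 genes, and the 3 of chromosome 5 within 774 of 6758. Those of chromosomes 1 and 3 lay at least 1194 genes apart. Whether the positions cluster was not tested. AT4G09580 was the nearest to RDO5, 172 genes away. Of the 60 genes within 2 places of a called gene, none was called, where 0.05% of all genes were. An unadjusted p under 0.05 was found for 3 of them (5%, against 7.34% of all genes). The largest neighbour value was that of MRU1 beside AT5G35480, -1.30 ± 0.39 (SE; adjusted p = 0.434). The group means of MRU1 were 3.05 and 2.85 in NIL-DOG1 siliques and dry seeds and 4.32 and 2.81 in rdo5-1, so it too was highest in rdo5-1 siliques. It was called without rdo5-1 siliques replicate 2.

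The genes of smallest p that missed the threshold were taken for each direction, 2 higher and 3 lower. IQD22, a calmodulin-binding protein of the IQ67-domain family, read 5.81, 5.88 and 5.77, then 5.60, 5.58 and 5.71 in NIL-DOG1, and 5.68, 5.81 and 5.74, then 6.21, 6.18 and 6.21 in rdo5-1. Only its rdo5-1 dry seeds were high, and the interaction was 0.65 ± 0.11 (SE; adjusted p = 0.0573). HA6, a plasma membrane proton pump, read 3.62, 3.39 and 3.73 in rdo5-1 siliques and 3.0 to 3.17 in the other groups, an interaction of -0.63 ± 0.12 (SE; adjusted p = 0.0812). AT3G21900, at 0.86 ± 0.15 (SE; adjusted p = 0.0677), and the pseudogenes AT3G43863, at -1.21 ± 0.22 (SE; adjusted p = 0.0812), and AT5G34810, at -1.94 ± 0.38 (SE; adjusted p = 0.114), were the others. HA6, AT3G21900 and AT5G34810 had group means close to background. HA6 was at percentiles 12.8 to 18.4 outside rdo5-1 siliques, and AT3G21900 at 3.78 in NIL-DOG1 dry seeds. AT5G34810 was at 0.916 in NIL-DOG1 siliques and 5.21 in rdo5-1 dry seeds.

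Genes of the dormancy pathway had no called interaction. RDO5, the mutated gene, read 6.60, 6.50 and 6.49 in siliques and 10.43, 10.41 and 10.47 in dry seeds of NIL-DOG1. The mutant arrays read 5.62, 5.89 and 5.08 and then 9.44, 9.45 and 9.64. It was lower in the mutant at both stages and rose by 3.91 in NIL-DOG1 and by 3.98 in rdo5-1, with an interaction of 0.07 ± 0.19 (SE; 95% interval -0.34 to 0.48; adjusted p = 0.968; -0.15 without rdo5-1 siliques replicate 3).

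DOG1, which sets the depth of dormancy, read 9.43, 9.45 and 9.47 in siliques and 9.10, 9.17 and 9.13 in dry seeds of NIL-DOG1. In the mutant it read 9.40, 9.51 and 9.50 and then 9.39, 9.48 and 9.42. Among the 4 groups of the interaction the NIL-DOG1 dry seeds were the lowest, and the dry minus silique differences of the genotypes did not overlap. The interaction was 0.27 ± 0.12 (SE; 95% interval 0.01 to 0.53), with an unadjusted p of 0.041 that did not survive adjustment (adjusted p = 0.651).

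Some other genes that were higher in rdo5-1 siliques had no called interaction either. APUM11, a Pumilio RNA-binding protein, read 5.37, 5.02 and 5.91 in rdo5-1 siliques and 5.45, 5.49 and 5.64 in rdo5-1 dry seeds, against 3.36 to 3.96 in NIL-DOG1. Its interaction was -0.18 ± 0.28 (SE; adjusted p = 0.941; 0.06 after quantile normalization). SDC, an F-box gene silenced by DNA methylation, had an interaction of -0.07 ± 0.20 (SE; 95% interval -0.49 to 0.34; adjusted p = 0.970; 0.06 after quantile normalization). APUM9, another Pumilio gene, read 2.98, 3.01 and 2.98, then 3.12, 3.36 and 3.13 in NIL-DOG1, and 4.27, 4.46 and 4.18, then 3.72, 4.01 and 4.05 in rdo5-1. It was above NIL-DOG1 at both stages, and its interaction of -0.59 ± 0.19 (SE; 95% interval -1.0 to -0.18; adjusted p = 0.507) was not called. QQS, a gene without relatives in other species that acts in starch and protein allocation, had group means of 4.03 and 3.90 in NIL-DOG1 and 6.59 and 5.22 in rdo5-1. Its interaction was -1.25 ± 0.28 (SE; 95% interval -1.84 to -0.65; adjusted p = 0.199).

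For the hormone genes the intervals bound what could have been missed. CYP707A2, which breaks down abscisic acid, had an interaction of 0.10 ± 0.13, and NCED9, which makes it, one of 0.06 ± 0.13 (SE). NCED6, of the same family as NCED9, had 0.01 ± 0.28, GA3OX1, which makes active gibberellin, 0.12 ± 0.24, and the seed regulator ABI3 0.14 ± 0.12 (SE). No interval of these 5 genes reached 1 log2 unit in either direction, and the lowest adjusted p among them was 0.856.

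**Figure D4:**
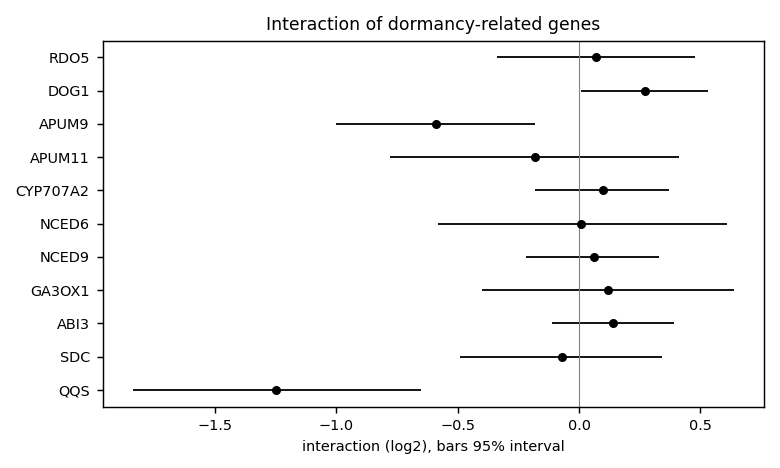
Interaction (log2) of 11 genes of dormancy and silencing with 95% intervals as bars. The intervals of RDO5, CYP707A2, NCED6, NCED9, GA3OX1, ABI3, APUM11 and SDC cross 0, and those of DOG1, APUM9 and QQS do not, though no adjusted p is under 0.05.

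Pathways were read from 23 gene lists with 376 distinct measured genes, and from the mitochondrial and plastid genomes with 93 and 14 genes. No member was called, and the lowest adjusted p was 0.152. That member was RAP2.6, an ethylene response factor that stress and abscisic acid induce. It read 4.10, 4.12 and 4.0, then 9.06, 8.95 and 9.10 in NIL-DOG1, and 4.01, 3.61 and 4.29, then 10.19, 10.36 and 10.10 in rdo5-1. The siliques overlapped, the dry seeds were apart, and the interaction was 1.28 ± 0.27 (SE). The median interaction over all genes was -0.00232, with 50.5% of them below 0. Medians of the 25 sets lay between -0.06 and 0.16 but for heat shock genes, seed coat flavonoid markers and tau glutathione transferases.

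Heat shock genes, whose small heat shock proteins protect other proteins in the dry seed, had the lowest median, -0.28 over 18 genes, with 15 of the 18 below 0. It lay between -0.35 and -0.24 over the 25 settings tried. At an unadjusted p under 0.05 there were 5 lower and 1 higher (33.3% of the list, against 7.34% of all genes). The genotype difference of the list had a median of 0.02 in siliques and -0.24 in dry seeds. HSP23.6-MITO, a mitochondrial small heat shock protein, read 4.76, 4.66 and 4.36, then 9.80, 10.11 and 10.09 in NIL-DOG1, and 4.51, 5.34 and 4.84, then 9.40, 9.37 and 9.45 in rdo5-1. Its siliques overlapped and its rdo5-1 dry seeds lay below those of NIL-DOG1, an interaction of -0.90 ± 0.22 (SE; adjusted p = 0.243). ATHSP22.0, at -1.27, and the disaggregase gene HSP101, at -0.29, were among the others. HSP17.6A, at -0.84 (adjusted p = 0.717), was called without rdo5-1 siliques replicate 1. The heat shock factor genes HSFA2, at 0.48, and HSFA9, at 0.33, lay on the other side of 0.

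**Figure D5:**
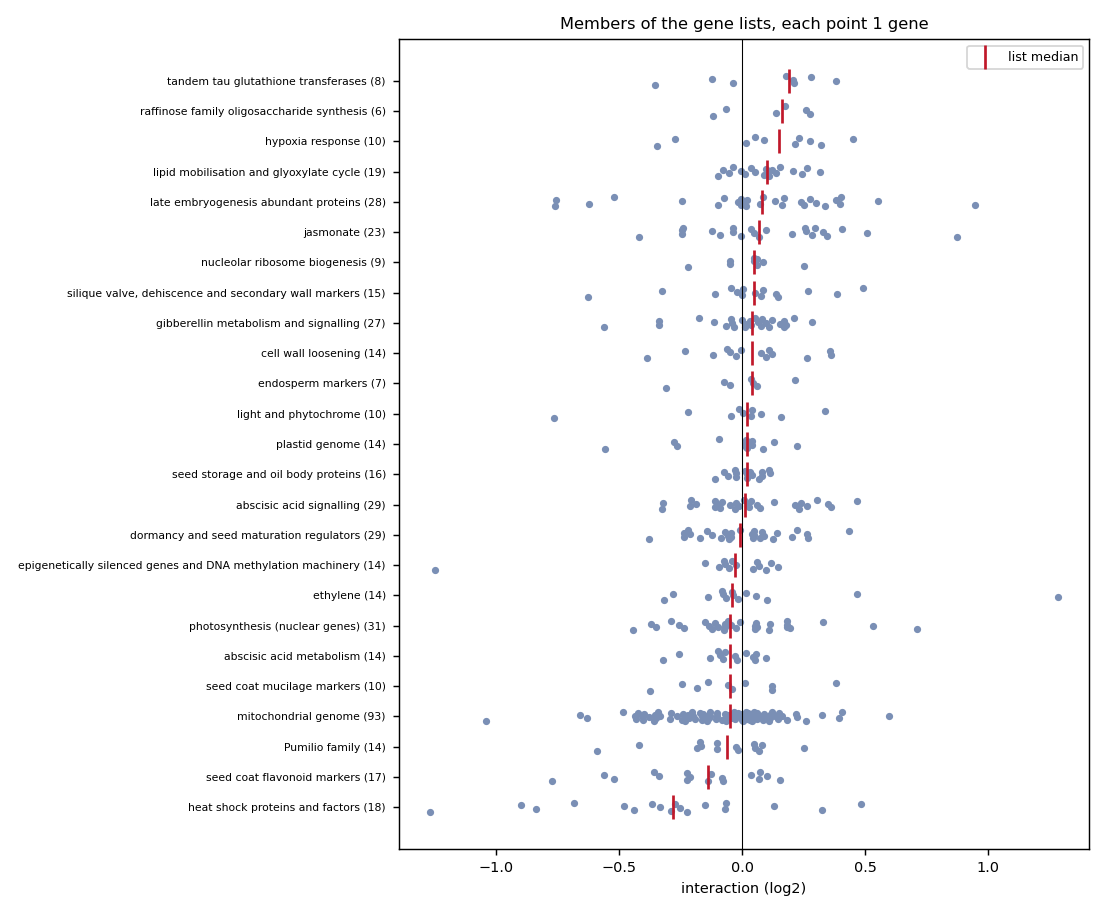
Interaction (log2) of every measured member of the 25 gene sets, 1 point for each gene, with the number measured in brackets and the median of each list as a red bar. Heat shock genes have the lowest median, -0.28, and tau glutathione transferases the highest, 0.19.

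Seed coat flavonoid markers had the next lowest median, -0.14 over 17 genes, with 12 below 0 and 5 above, the highest at 0.15. At an unadjusted p under 0.05 there were 3 lower and none higher (17.6%, against 7.34% of all genes). DFR, which makes leucoanthocyanidin, had -0.77, the laccase gene TT10 -0.56 and the regulator TT8 -0.52, none called. These markers move with the amount of seed coat RNA. The list averaged 6.17 to 6.47 per array in NIL-DOG1 siliques and 6.39 to 6.52 in rdo5-1 siliques. In dry seeds it averaged 4.62 to 4.66 in NIL-DOG1 and 4.54 to 4.57 in rdo5-1. Fewer cells of a type and less RNA per cell cannot be told apart in such samples. Mucilage markers averaged 5.55 to 5.74 in NIL-DOG1 siliques and 5.69 to 5.73 in rdo5-1 siliques, and their median interaction was -0.05. At an unadjusted p under 0.05, 1 of the 10 was higher and 1 lower (20%). Of the 15 valve markers 1 was higher and 2 were lower at an unadjusted p under 0.05 (20%). The valve markers had interactions of -0.63 to 0.49 with a median of 0.05, 9 above 0 and 6 below. Among them the dehiscence enzyme gene ADPG1 had -0.63 and the valve margin gene SHP2 -0.32, and CESA8, a cellulose synthase of secondary walls, had 0.39. The part of tissue makeup in the called interactions was not tested.

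Jasmonate genes had 5 of 23 members higher at an unadjusted p under 0.05 (21.7%, against 7.34% of all genes) and none lower. Their median was 0.07, with 14 above 0 and 9 below, the lowest at -0.42. VSP1, a vegetative storage protein and classical jasmonate target, had group means of 11.28 and 3.33 in NIL-DOG1 and 10.45 and 3.37 in rdo5-1. Its siliques were lower in rdo5-1 and its dry seeds were dim in both lines, with an interaction of 0.87 ± 0.22 (SE; adjusted p = 0.246). It was called without rdo5-1 siliques replicate 3. MYC2, the main transcription factor of the jasmonate response, read 6.45, 6.46 and 6.46, then 4.42, 4.33 and 4.35 in NIL-DOG1, and 5.95, 5.81 and 5.99, then 4.25, 4.41 and 4.33 in rdo5-1. Its siliques were apart with rdo5-1 below and its dry seeds overlapped, an interaction of 0.51 ± 0.12 (SE; adjusted p = 0.225).

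Late embryogenesis abundant (LEA) genes, whose products accumulate as the seed dries, had a median of 0.08 over 28 genes, with 18 above 0 and 10 below. At an unadjusted p under 0.05 there were 3 higher and none lower (10.7%, against 7.34% of all genes). LEA7 read 10.82, 10.70 and 10.50, then 13.37, 13.40 and 13.35 in NIL-DOG1, and 10.36, 10.40 and 10.39, then 13.55, 13.44 and 13.46 in rdo5-1. The rdo5-1 arrays were below in siliques and above in dry seeds, an interaction of 0.40 ± 0.11 (SE; adjusted p = 0.352). The dehydrin gene XERO2 had 0.55 and SAG21 0.95. On the other side of 0, EM6 and M10 had -0.76 each, ATECP31 -0.62 and M17 -0.52, with larger errors (SE 0.355 to 0.571). The 16 storage and oil body genes had interactions between -0.11 and 0.11, with none past an unadjusted p of 0.05.

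Of the 29 abscisic acid signalling genes 4 were higher and 1 lower at an unadjusted p under 0.05 (17.2%, against 7.34% of all genes), with a median of 0.01. The receptor gene PYL7 had 0.35 ± 0.13 (SE; adjusted p = 0.564) and the kinase gene SNRK2.3 0.23, while another receptor gene, PYL6, had -0.32. The 14 genes of abscisic acid metabolism had a median of -0.05, led by the synthesis gene NCED5 at -0.32 ± 0.13 (SE; adjusted p = 0.628). Over 27 gibberellin genes the median was 0.04, and the synthesis gene GA20OX2 and the inactivating gene GA2OX6, at -0.34 and -0.56, stood against KAO2 at 0.29. Among 29 dormancy and maturation regulators the median was -0.01, and the member of smallest p was the embryo regulator LEC2 at -0.38 ± 0.14 (SE; adjusted p = 0.566).

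The remaining sets had no called member either. Their shares at an unadjusted p under 0.05 ran from 0% (endosperm markers, plastid genome) to 20% (hypoxia response, light genes). The share over all genes was 7.34%. The highest medians among them were those of tau glutathione transferases, 0.19, raffinose family oligosaccharide synthesis, 0.16, hypoxia response, 0.15, and lipid mobilisation, 0.10. At an unadjusted p under 0.05 these had 1 of 8 genes (12.5%), 1 of 6 (16.7%), 2 of 10 (20%) and 1 of 19 (5.26%). GOLS1, the first enzyme towards raffinose, had 0.27 ± 0.08 (SE; adjusted p = 0.433) and PCO1, an oxygen-sensing cysteine oxidase, 0.45 ± 0.14 (SE; adjusted p = 0.456). Among light genes HFR1, a transcription factor of shade and far-red responses, read 5.08, 5.03 and 5.19, then 3.43, 3.50 and 3.36 in NIL-DOG1, and 5.17, 5.87 and 5.53, then 3.0, 3.18 and 3.09 in rdo5-1. Its siliques overlapped, its rdo5-1 dry seeds were below, and the interaction was -0.76 ± 0.19 (SE; adjusted p = 0.276). Of 31 nuclear photosynthesis genes 1 passed an unadjusted p of 0.05, the light-harvesting gene CAB2 at 0.53 ± 0.23 (SE; adjusted p = 0.640). The mitochondrial genome had 6 genes lower and 1 higher of 93 at that level (7.53%) with a median of -0.05, and the plastid genome had none of 14.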

How the data were processed

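Transcript levels were measured on AGRONOMICS1 tiling arrays, 18 in 6 groups of 3. The deposited values are log2 expression values, 1 per gene and array, made by the authors with RMA per the submitters' processing notes. For the RMA version, the probe sets and the build the sources used here give nothing, so no coordinates are printed. The number of arrays limits the precision, and background compresses differences of dim genes. A TAIR10.1 gene table matched 29464 of the 30014 locus codes and gave symbols, biotypes and chromosomes.

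The main model, run in limma 3.58.1 (lmFit, eBayes; R 4.3.3), gave each of the 6 groups of arrays a mean, with 12 residual degrees of freedom and no filter on genes. The interaction and its parts are contrasts of that fit, with Benjamini-Hochberg adjustment over all genes and n = 3 arrays per group in every test. P-values measure the spread between these replicates. The procedure was tested on simulated data. Members and gene lists were chosen with earlier results of these data known.

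The rule named up to 15 called genes per direction by adjusted p (filled to 10 by unadjusted p), the 5 largest called in each direction, 11 dormancy and silencing genes, and the member of smallest p in each list. Other list members and MRU1 were named after their values were seen. Of 389 list memberships 382 were measured; the other 7 genes were not analysed here. Alternatives were a filter on dim genes, both renormalizations, variance settings, array weights, the 12 arrays alone, the replicate number as a block, a size limit and leaving out each array.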

Additional observations from a re-analysis of the deposited data

Results flagged for a closer look

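The 15 called genes are results where the same contrast, dry seeds minus siliques, differed between the genotypes by a direct test. Changes more upward in rdo5-1 were those of AT2G13547 (2.39), AT4G04077 (1.72), TPX2 (1.29), AT5G37480 (1.02), SEN1 (0.94), AT4G09580 (0.89), AT5G27850 (0.88) and AT3G08030 (0.81). Changes more downward in rdo5-1 were those of AT2G04460 (-4.19), AT5G35480 (-3.24), AT4G03930 (-2.85), AT2G10980 (-1.82), AT1G77230 (-1.29), AT1G30190 (-1.11) and AT3G20460 (-1.02). In 3 of the 15 at least 1 group mean lay under the 25th percentile of its group, where the level is close to background. No cause of any of these differences was tested.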

How the results depend on the processing

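The count of 15 was 11 to 16 under the other settings and 12 to 21 without 1 array. The same 15 genes were called with trend and robust settings, and 14 of them without the 30% dimmest genes (15 called; the filter removes AT2G10980), after quantile normalization (15) and with array weights (16). Centring arrays on their medians kept all 15 and added HA6. With the 12 arrays alone 11 were called, 10 of them shared, of which 4 lower in place of 7; fewer residual degrees of freedom go with it. A size of at least 1 left 11, of which 4 higher. Without rdo5-1 siliques replicate 2 there were 21, of which 13 higher; without 1 array the higher calls were 6 to 13 and the lower 5 to 9.

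Calls of 11 genes held without each array in turn, and 9 held under all settings but the size limit. Of these 9, SEN1, AT4G09580, AT5G27850 and AT3G08030 were under 1 in size. AT2G10980, AT3G20460, AT5G37480, AT1G30190 and TPX2 were lost with the 12 arrays alone. Calls that depended on single arrays were those of AT5G37480 (lost without NIL-DOG1 dry 2 and 3, NIL-DOG1 siliques 1 and 3, rdo5-1 dry 3, rdo5-1 siliques 1 and 3), AT1G30190 (NIL-DOG1 dry 2, NIL-DOG1 siliques 2 and 3, rdo5-1 dry 1, rdo5-1 siliques 3), TPX2 (every dry array and replicates 1 and 3 of both silique groups) and AT1G77230 (NIL-DOG1 dry 1 and 2, every rdo5-1 dry and every silique array, NIL-DOG1 imbibed 3, rdo5-1 imbibed 2).

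Signs turned only for genes that were not called. APUM11 and SDC were 0.06 after quantile normalization, and NCED6 was -0.01 with centred arrays. Without 1 array the values ran from -0.01 to 0.15 for NCED9, -0.26 to 0.09 for SDC, -0.22 to 0.37 for NCED6, -0.06 to 0.32 for GA3OX1, -0.15 to 0.25 for RDO5 and -0.39 to 0.05 for APUM11. The cause was not tested.

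The deviations from the group means gave little sign of pairing by replicate number. Over 45 pairs of equal number they correlated at -0.05 to 0.17. The 1 pair over 0.1 was replicate 2 of the siliques of both genotypes. Such correlations cannot show whether samples of equal number were grown or handled together. With the replicate block 14 genes were called, 12 of them shared, and AT5G37480, TPX2 and AT1G77230 were lost.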
